A study of Rattus norvegicus with 14 samples.

Results

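Broad unmethylated stretches of the rat genome were described in the soleus of the left leg, a calf muscle made mainly of slow fibres that holds posture. They were chosen by level: a window of 1000 bp on chromosomes 1 to 20 entered when it had a value in all 14 samples and its mean over those samples was under 10% methylation, and only runs of 3 or more directly consecutive windows of this kind were kept. This gave 2061 runs holding 6987 windows, out of 135802 windows with a value in every sample and 194367 windows in the table. The assay was RRBS (reduced representation bisulfite sequencing), in which MspI cuts genomic DNA at CCGG sites, short fragments are selected, and bisulfite converts unmethylated cytosines before sequencing. The samples were from female rats aged 23 to 24 months, of generation 44 of a pair of lines bred from the heterogeneous N:NIH stock, one for high running capacity (HCR, 6 samples) and the other for low (LCR, 8 samples). All samples are baseline samples. No other treatment is named in the labels, all animals had free access to standard chow, and nothing states that each sample came from a different rat, so errors and p-values cover only how much these samples vary, which may be technical. The lines differ in their whole inherited background, and a level is an average over all cells of the muscle piece, so a change in cell makeup and a change within cells cannot be told apart.

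In vertebrate genomes most CpG sites are methylated, and the exceptions cluster in CpG islands, CpG-dense sequence that covers many promoters. There, transcription factors, CXXC-domain proteins and histone H3 lysine 4 methylation keep the de novo methyltransferases DNMT3A and DNMT3B away, and TET enzymes oxidise methyl groups that do arrive. Where low methylation extends well past a single island the region is often called a methylation valley or canyon, and such regions are known for developmental regulators marked by Polycomb in tissues that do not use them. Genes could not be assigned here, since the gene table at hand is of the assembly GRCr8 and the windows are given on rn7, so regions are named by their rn7 position only and marker genes of muscle were not checked.

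Of the 35873 windows under 10% on chromosomes 1 to 20, 19.5% lay in runs, 15036 lay in pairs and 13850 stood alone. The windows of the runs spanned 6.99 Mb in all, which is 5.30% of the windows on these chromosomes with a value in every sample. How much of each window was covered by reads is not known. Most runs were short: 1535 (74.5%) had exactly 3 windows, 363 had 4 and 98 had 5. Only 11 runs had 8 or more windows, and the longest had 11. Just outside the length limit there were 7518 pairs of low windows.

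**Figure D1:**
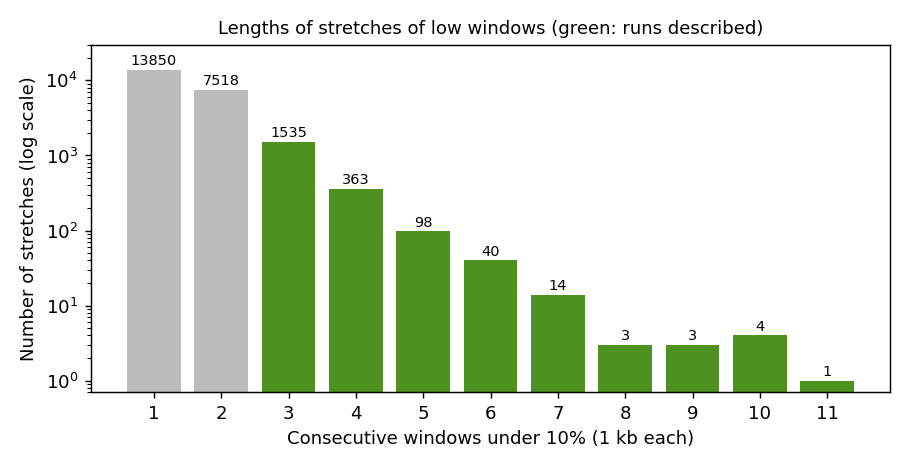
Number of stretches of consecutive windows under 10% methylation (log scale) against their length in windows of 1 kb; green bars are the runs described. The count falls from 1535 runs of 3 windows to 1 run of 11.

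Run length was bounded mainly by what was measured. Of the 4122 run ends, 3338 (81.0%) met a neighbouring window that is not in the table, 218 (5.29%) met a window with values in some samples, and 566 (13.7%) met a window measured in every sample, which is at 10% or more by the rule. In 1377 runs neither neighbour was in the table, and 62 runs were closed on both sides by a window measured in every sample. Among the 216 distinct neighbours measured in some samples, 87 (40.3%) averaged under 10% over their measured values. Isolated low windows had a neighbour outside the table at 79.6% of their ends and pairs at 85.0%. The lengths are therefore lower limits for most runs, and the word broad holds for measured stretches of a few kb.

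Consecutive coverage itself was uncommon, since 20280 windows lay in stretches of 3 or more consecutive windows with a value in every sample, whatever their level. Low windows were frequent in these stretches. There, 52.8% of windows were under 10%, against 27.2% of all windows with a value in every sample on these chromosomes, and 34.5% belonged to a run.

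Every chromosome from 1 to 20 held runs. Chromosome 1 had the most, 264, and chromosome 11 the fewest, 47. Relative to the windows with a value in every sample, the density was highest on chromosome 10, with 19.2 runs per 1000 windows, and on chromosome 1, with 18.8, and lowest on chromosome 13, with 12.7. The share of low windows that lay in runs ranged from 16.3% on chromosome 8 to 23.8% on chromosomes 12 and 19. Neighbouring runs were a median of 500 kb apart, and 104 of 2041 gaps (5.10%) were 10 kb or less. In 24 of these a single window separated neighbouring runs.

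Residual methylation in the runs was low and uneven. The mean over all 14 samples was 2.54% over the 6987 windows and the median window stood at 1.64%. The median of the run means was 2.20%, with quartiles of 1.35% and 3.36%. The 3 lowest runs averaged 0.623% to 0.686% and the 3 highest 7.88% to 8.64%. In 1305 runs (63.3%) all windows averaged under 5%. These values follow from the choice of runs by level and are a description only. At the threshold, 110 run windows averaged 9% or more, and 38 of the windows directly beside a run averaged 10 to 11%.

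Complete absence of signal was rare. Of 97818 single values in run windows, 3.06% were exactly 0, and 0 windows were at 0 in every sample. High single values were also rare: 2.11% of values were 10% or more, and in 1428 runs (69.3%) every sample was under 10% in every window. A sample at 20% or more occurred in 42 windows, in 36 of them in a single sample. The highest sample was an HCR sample in 27 of these windows and an LCR sample in 15. Single HCR samples (n = 6) supplied 2 to 7 of them and single LCR samples (n = 8) 0 to 3. This split was not tested. The highest value of all was 34.9%.

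Averaged by position over all runs, the level was lowest in the windows directly inside the edge windows. Deeper positions had higher means, but these come from longer runs only. The first and last windows of runs averaged 3.11% in HCR and 2.72% in LCR, and the 2587 windows directly inside them 2.08% and 1.89%. The 228 windows at position 3 from the edge averaged 2.75% and 2.56%, the 36 at position 4 averaged 3.42% and 3.21%, and the 13 at position 5 averaged 4.03% and 3.32%. Position 3 exists only in runs of 5 or more windows and the last 2 positions only in runs of 7 or more. They therefore come from other runs than most edges do, and a rise within a run was not tested. By run length, inner windows averaged less than edge windows in runs of 3 to 6, 10 and 11 windows and more in runs of 7 (3.24% against 3.08%), 8 (3.12% against 2.90%) and 9 (2.30% against 1.85%). In runs of 3 the first, middle and last windows averaged 2.76%, 1.75% and 2.73% over all samples. The middle window was the lowest in 694 of the 1535 runs (45.2%) and the highest in 208 (13.6%). Longer runs were not lower throughout: the mean was 2.41% for 3 windows, 2.71% for 4, 3.19% for 7 and 4.63% for the 4 runs of 10, though a single run of 11 averaged 1.66%.

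**Figure D2:**
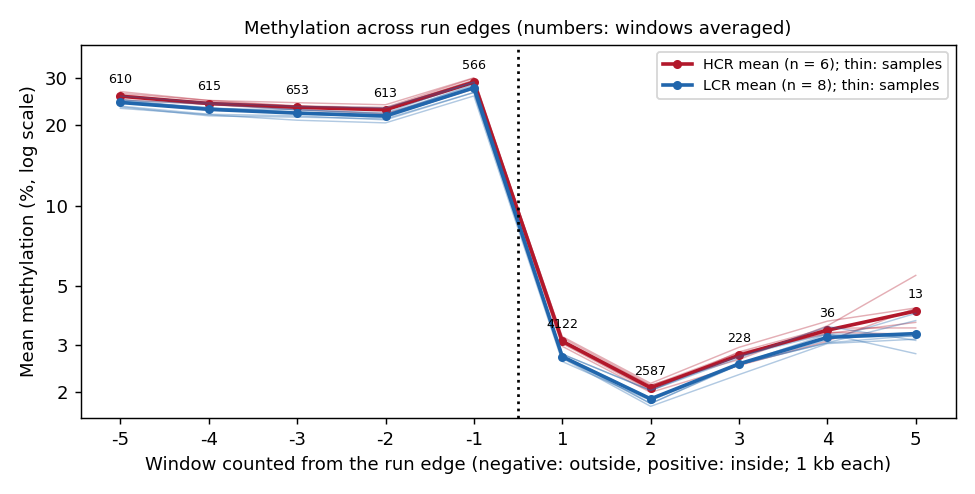
Mean methylation (log scale) by window position relative to the run edge, negative outside and positive inside, with line means (thick) and samples (thin); numbers give the windows averaged. The first window outside averages 28.9% in HCR and 27.6% in LCR (566 windows) and the first inside about 3% (4122 windows). The rule sets the first window outside at 10% or more and run windows under 10%, so a step at the edge follows from it.

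Outside the runs the level rose within a single window where it was measured. The 563 distinct windows directly beside a run averaged 28.2%, with a median of 23.4% and quartiles of 14.3% and 37.2%. Of these, 161 (28.6%) were at 10 to 15%, 83 (14.7%) at 50% or more and 15 (2.66%) at 70% or more. At least 10% is set by the rule for them. Farther out, at 2 to 5 windows from the edge, 41.3% to 44.0% of the measured windows were again under 10%.

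The 5 longest runs differed in how low they were. The run of 11 windows lay at 11749001 to 11760000 on chromosome 12 and averaged 1.66%. Its first 10 windows averaged 0.724% to 1.95% and its last window 6.81%. Its HCR samples ranged from 1.49% to 2.24% (median 1.82%) and its LCR samples from 1.26% to 1.88% (median 1.56%), so the lines overlapped. This run was low throughout except at its right end.

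On chromosome 8, the run of 10 windows at 100416001 to 100426000 averaged 3.45%, with HCR samples from 3.12% to 4.04% (median 3.44%) and LCR samples from 2.88% to 4.47% (median 3.38%). A second run on this chromosome, at 19566001 to 19576000, was the most uneven of the 5, with window means from 1.03% to 9.62%. Its HCR samples ranged from 4.12% to 7.08% (median 5.59%) and its LCR samples from 4.30% to 6.42% (median 5.19%). In both, the lines overlapped, with differences of 0.124 and 0.233 points. Single samples decide both values: the first was 0.0192 points without HCR replicate 6 and 0.277 without LCR replicate 7, and the second was -0.0947 without HCR replicate 4 and 0.497 without HCR replicate 2.

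On chromosome 10, the run at 69398001 to 69408000 averaged 4.45%, and its samples ranged from 3.70% to 5.70% in HCR (median 4.75%) and from 3.44% to 5.10% in LCR (median 4.03%). The run at 17784001 to 17794000 on the same chromosome averaged 5.30%, with HCR samples from 4.92% to 7.01% (median 5.86%) and LCR samples from 4.34% to 5.61% (median 4.76%). These differences were 0.530 points, or 0.340 without HCR replicate 6, and 1.01 points. Both overlapped between the lines, and 0 windows of these 5 runs were called by the test of single windows given below.

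**Figure D3:**
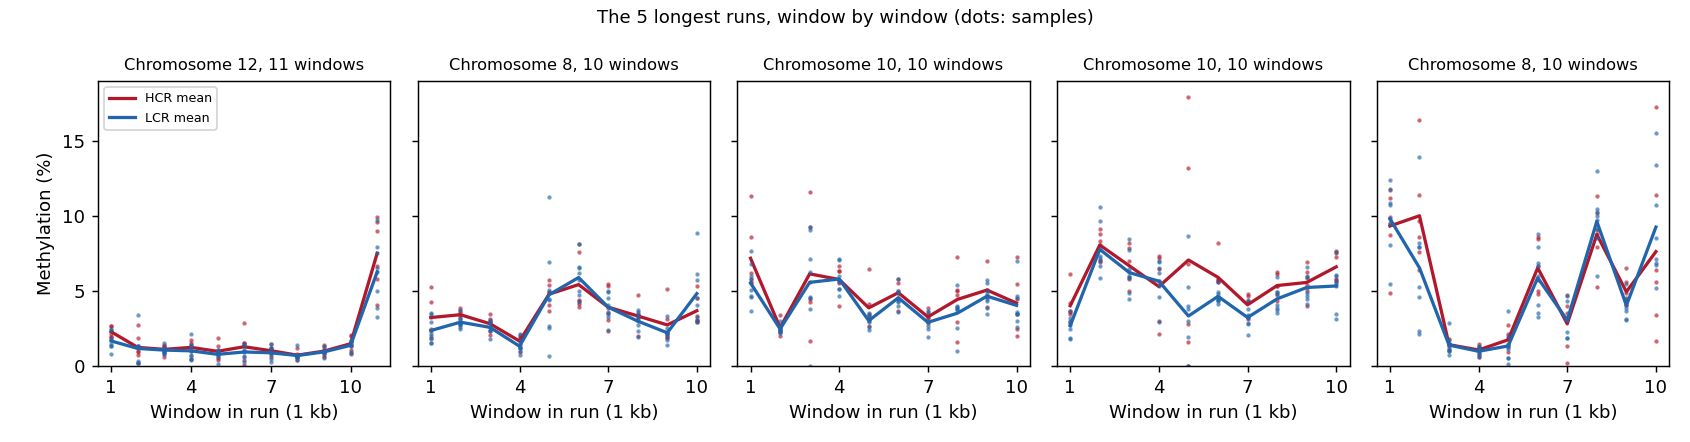
Methylation of each sample (dots) and line means (lines) against the window in the run for the 5 longest runs. The chromosome 12 run averages at most 1.95% over all samples in each window but its last, and the second chromosome 8 run moves between 1.03% and 9.62%.

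Between the lines, the runs were slightly more methylated in HCR, and the samples did not overlap. Averaged over the 6987 windows, HCR replicates 1 to 6 had 2.60%, 2.74%, 2.66%, 2.79%, 2.69% and 2.83%. LCR replicates 1 to 8 had 2.40%, 2.50%, 2.37%, 2.34%, 2.43%, 2.50%, 2.34% and 2.41%. The lowest HCR sample thus stood above the highest LCR sample. The means were 2.72% ± 0.0849 (SD, n = 6) and 2.41% ± 0.0662 (SD, n = 8). HCR was thus higher by 0.308 percentage points (SE 0.0418), a ratio of 1.13. The ratio of HCR to LCR was also 1.13 in isolated low windows, and 1.11 in pairs of low windows. The runs were chosen with results of these data known, so no p-value is given for the mean over run windows.

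The direction was the same on each of the 20 chromosomes, where the difference ranged from 0.215 points on chromosome 17 to 0.461 on chromosome 20, and it was 0.303 to 0.312 points when each chromosome was left out in turn. All chromosomes were read in the same libraries. Over all 135802 windows with a value in every sample the HCR samples ranged from 34.2% to 37.1% (median 36.1%) and the LCR samples from 33.3% to 36.5% (median 35.1%), so there the lines overlapped. As a percentage of this overall mean of the same sample, run windows stood at 7.56 ± 0.248 (mean ± SD) in the HCR samples and 6.92 ± 0.289 in the LCR samples. On this scale the samples overlapped, from 7.23 to 7.91 in HCR and from 6.56 to 7.43 in LCR. The median window of a sample also overlapped, with 1.65% to 1.79% in HCR and 1.38% to 1.67% in LCR.

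**Figure D4:**
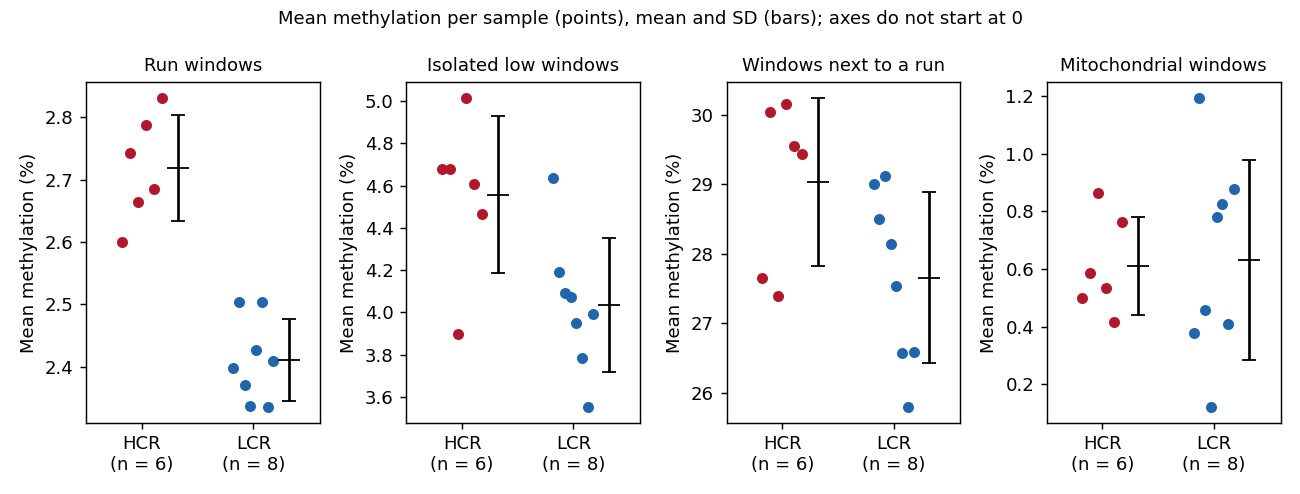
Mean methylation of each sample (points) with line mean and SD (bars) in run windows, isolated low windows, windows directly beside a run and mitochondrial windows; the axes do not start at 0. In run windows all HCR samples (2.60% to 2.83%) lie above all LCR samples (2.34% to 2.50%), and in the other panels the lines overlap.

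Unmethylated cytosines that escape bisulfite conversion are read as methylated, and mitochondrial DNA, which carries little CpG methylation, is a common gauge of them. The mitochondrial windows stood at 0.610% ± 0.169 in the 6 HCR samples and 0.631% ± 0.346 in the 8 LCR samples (mean ± SD over 10 windows). The HCR minus LCR difference was -0.0205 points (exact permutation test, two-sided, p = 0.918). With this level subtracted in each sample the run difference was 0.328 points, and the lines then overlapped, with HCR samples from 1.802% to 2.27% and LCR samples from 1.31% to 2.22%. Within LCR the run level rose with the mitochondrial level (n = 8, Pearson's r = 0.86, exact permutation p = 0.00598, adjusted p = 0.0359 over 6 relations; Spearman's rho = 0.81, exact p = 0.0218, adjusted p = 0.131), and r was 0.72 without the 2 samples farthest from the median. Within HCR the relation did not pass: r was 0.24 (6 samples, exact permutation test, p = 0.639, adjusted 0.876) and rho was 0.26 (exact test, p = 0.658, adjusted 0.790). Without the 2 farthest samples r was 0.44 over the remaining 4. The other relations of this family, with the count of missing windows and with the overall mean, had adjusted exact p-values of 0.696 or more in both lines. Libraries were pooled before conversion and amplification. The sources used here do not name the pools, so an effect of pools was not tested.

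The difference grew with the level of the window and was close to proportional to it above 1%. In the 1323 run windows with a mean under 1%, HCR samples ranged from 0.821% to 0.896% (median 0.833%) and LCR samples from 0.690% to 0.920% (median 0.817%), so the lines overlapped and the difference was 0.0490 points (SE 0.0339). In the 2734 windows of 1 to 2% it was 0.164 points (SE 0.0459), again with overlap. In the 1025 windows of 2 to 3% it was 0.306 points (SE 0.0574), and in the 930 windows of 3 to 5% it was 0.552 points (SE 0.0697). In these classes the samples did not overlap, with 3.98% to 4.41% in HCR (median 4.14%) and 3.54% to 3.76% in LCR (median 3.61%) at 3 to 5%. In the 975 windows of 5 to 10% it was 0.831 points (SE 0.141), with a slight overlap. Relative to LCR the difference was 6.14% under 1% and between 12.5% and 15.2% in the other classes. More windows of a sample were also raised in HCR: 15.3% ± 0.823 (SD) of run windows stood at 5% or more over the 6 HCR samples, against 12.5% ± 0.550 over the 8 LCR samples, and the samples ranged from 13.9% to 16.4% and from 11.4% to 13.1%.

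Isolated low windows, those under 10% with no neighbour that was measured in every sample and low, had a higher level and a wider spread between samples. At 79.6% of their ends the neighbour was not in the table. In isolated windows HCR samples ranged from 3.90% to 5.01% (median 4.64%) and LCR samples from 3.55% to 4.64% (median 4.03%). The difference was 0.523 points (SE 0.188), and here the lines overlapped. In pairs of low windows HCR samples ranged from 2.25% to 2.50% (median 2.43%) and LCR samples from 2.02% to 2.29% (median 2.17%). The difference in pairs was 0.238 points (SE 0.0479), again with overlap. The line difference in runs was smaller than that in isolated windows by 0.215 points, which did not pass the test of this difference (exact permutation test, two-sided, p = 0.253; interval of values not rejected at 0.05 from -0.598 to 0.185). This value was -0.137 points without HCR replicate 4 and -0.336 without HCR replicate 3 (exact permutation p = 0.468 and 0.0653). At matched level the line differences of run and isolated windows were also set against each other. Of the 5 level classes, 0 passed after Benjamini-Hochberg adjustment (exact permutation tests, smallest adjusted p = 0.0599, at 1 to 2%). In that class runs differed by 0.0398 points more than isolated windows, with an unadjusted exact permutation p of 0.012. The level classes were chosen after seeing the data, so these p-values are descriptive.

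The spread between samples was smaller in run windows than in isolated windows and close to that in pairs of low windows. The median SD within lines was 0.596 points for run windows, 0.547 for windows in pairs and 1.77 for isolated windows. It was 0.766 points for run windows of 2 to 3%, against 1.22 for isolated windows of the same level, and 2.10 against 3.47 at 5 to 10%. Under 1% the values were close, at 0.317 and 0.342 points. Depth is not known for either, so it was not tested whether run windows hold more covered cytosines or reads.

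**Figure D5:**
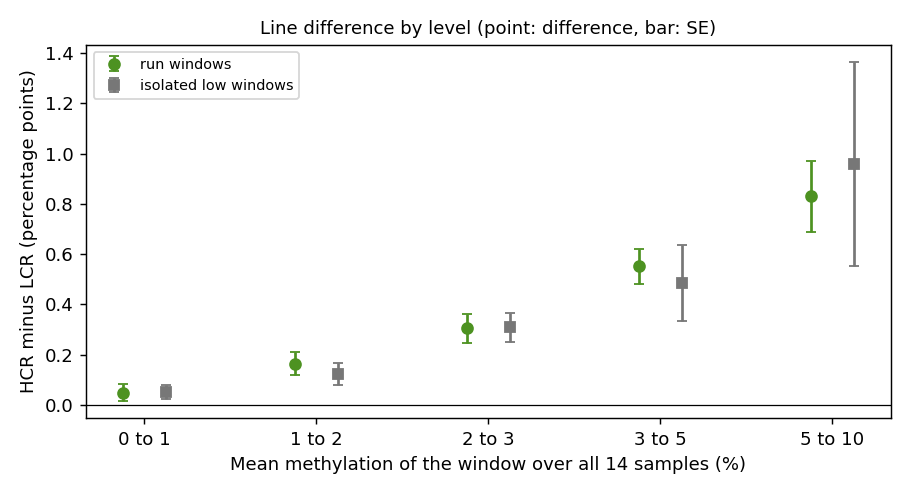
HCR minus LCR difference in percentage points (points, with SE bars) by the mean level of the window, for run windows (green circles) and isolated low windows (grey squares). The difference in runs rises from 0.0490 points under 1% to 0.831 points at 5 to 10%, and isolated windows lie close to it in each class.

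The mean difference had the same sign in each class of run length. It was 0.312 points (SE 0.0374) in the 1535 runs of 3 windows, 0.296 (SE 0.0532) in the 461 runs of 4 or 5, 0.295 (SE 0.0468) in the 60 runs of 6 to 9 and 0.432 (SE 0.2) in the 5 runs of 10 or more. In the first pair of classes the samples did not overlap, with 2.49% to 2.70% in HCR (median 2.59%) and 2.21% to 2.37% in LCR (median 2.28%) for runs of 3. In the 60 runs of 6 to 9 windows the lowest HCR sample, at 2.96%, stood just under the highest LCR sample, at 2.97%. In the longest class the samples overlapped, from 3.77% to 4.85% and from 3.37% to 4.08%.

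The outer windows of the runs carried more of the difference than the inner ones. Edge windows, the first and last of each run, had 3.11% ± 0.0967 (SD) over the HCR samples and 2.72% ± 0.0570 over the LCR samples, and the samples did not overlap. Inner windows had 2.16% ± 0.0686 and 1.97% ± 0.0973, with overlap. The line difference was 0.386 points at the edges and 0.195 inside, and inner minus edge differed between the lines by -0.192 points (SE 0.0300). This is a description without a p-value, since both sets of windows belong to the chosen runs. Edge windows were also the more methylated ones on average, and the line difference grew with the level. As a percentage of the edge level, inner windows stood at 69.5 ± 0.393 (SD) for HCR and 72.3 ± 2.88 for LCR, which differ by -2.71 with overlapping samples, from 69.1 to 70.2 and from 68.5 to 75.8.

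In the 563 windows directly beside a run HCR samples ranged from 27.4% to 30.2% (median 29.5%) and LCR samples from 25.8% to 29.1% (median 27.8%). The difference of 1.38 points (SE 0.658) did not pass the exact permutation test (two-sided, p = 0.0613). It passed without HCR replicate 1 (1.65 points, exact p = 0.0342), HCR replicate 3 (1.71 points, exact p = 0.0249), LCR replicate 1 (1.57 points, exact p = 0.0431) or LCR replicate 3 (1.59 points, exact p = 0.0396). With samples 1 to 6 of each line it was 0.888 points (exact permutation p = 0.188).

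Run by run, the differences were small and mostly of the same sign. Of the 2061 runs, 1605 (77.9%) averaged higher in HCR and 456 lower. The median difference was 0.222 points, with quartiles of 0.0262 and 0.520 and extremes of -2.87 and 3.28. A difference of at least 1 point was seen in 221 runs, 197 higher and 24 lower in HCR. Without these 221 runs the remaining 6257 windows still averaged 2.51% in HCR and 2.30% in LCR. The lines did not overlap in 23 of the 2061 runs (1.116%), all of them higher in HCR. No share for comparable stretches outside the runs is given, so this share has no reference. Among all 135802 single windows, those without overlap were also mostly higher in HCR, 758 against 206 higher in LCR. The direction is therefore not particular to the runs.

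By window, 70.9% of run windows were higher in HCR, against 64.6% of all windows with a value in every sample and 65.1% of isolated low windows. Windows whose lines did not overlap were counted in the runs and in the whole table, and the shares were not tested against each other. Of the run windows, 31 (0.444%) had all HCR samples above all LCR samples, where the share over all windows was 0.558%. A single run window (0.0143%) had all LCR samples above, where the overall share was 0.152%. In either direction the share was 0.458% of run windows, where the overall share was 0.710%.

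The 3 runs with the largest higher level in HCR, each of 3 windows, were listed for their size, with no test. At 30611001 to 30614000 on chromosome 13 HCR samples ranged from 7.78% to 13.9% (median 9.20%) and LCR samples from 3.49% to 8.59% (median 6.87%), a difference of 3.28 points with overlap. At 173953001 to 173956000 on chromosome 2 they ranged from 5.42% to 9.21% (median 6.37%) and from 2.45% to 4.97% (median 3.98%), a difference of 2.93 points without overlap. At 54076001 to 54079000 on chromosome 18 they ranged from 3.61% to 8.13% (median 5.71%) and from 1.07% to 5.15% (median 2.22%), a difference of 2.91 points with overlap. In the chromosome 18 run the first window had 1.09% in HCR and 0.952% in LCR, and the middle one 3.45% and 1.34%. The last had 12.1% and 5.66%, so the difference was largest at the right end.

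The 3 runs with the largest lower level in HCR all had LCR samples spread over a wide range. At 57766001 to 57769000 on chromosome 4 HCR samples ranged from 2.71% to 4.94% (median 3.34%). There LCR replicates 1, 2 and 5 stood at 11.2%, 11.7% and 10.97%, LCR replicate 4 at 6.63% and the others between 2.25% and 3.41%. The difference was -2.87 points, with 4 LCR samples above all HCR samples and the other 4 within or below the HCR range. At 62996001 to 62999000 on chromosome 5 HCR samples ranged from 2.40% to 7.09% (median 5.89%) and LCR samples from 3.10% to 16.9% (median 6.69%), a difference of -2.75 points, or -1.49 without LCR replicate 1. At 9054001 to 9057000 on chromosome 14 HCR samples ranged from 1.77% to 2.83% (median 2.01%) and LCR samples from 2.40% to 6.77% (median 4.94%), a difference of -2.59 points. In this run the last window accounted for most of it, with 1.93% in HCR and 9.75% in LCR, which was not called (limma adjusted p = 0.0616).

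Few single run windows differed between the lines. By limma on log2 logit levels, with Benjamini-Hochberg adjustment over all 135802 windows, 15 of the 6987 run windows (0.215%) were called at an adjusted p under 0.05, where the share over all windows was 0.569%. Higher in HCR were 12 (0.172%; 0.405% over all windows) and lower 3 (0.0429%; 0.164% over all windows). At an unadjusted p under 0.05 there were 654 run windows (9.36%; 10.9% over all windows). Centring each library on its mean shifted the median log2 logit difference of all windows from 0.08 to -0.02 and that of run windows from 0.09 to -0.01. After this, 4 run windows were called higher and 3 lower, and after quantile normalization 3 and 4. Over all windows 550 were called higher and 223 lower before centring, 342 and 326 after it, and 357 and 318 after quantile normalization. Leaving out a sample gave 6 to 20 called run windows, where the count over all windows was 495 to 669. It gave 6 without HCR replicate 6, 7 without HCR replicate 5 or LCR replicate 2, and 8 without HCR replicate 2 or LCR replicates 6 or 8. It gave 9 without HCR replicates 3 or 4 or LCR replicates 1 or 5.

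The 15 called windows lay in 15 different runs, and 11 of them were the first or last window, where 59.0% of all run windows are first or last. Their median absolute difference was 2.28 points, and in 8 of them the lines did not overlap. No run held more than 1 called window. Of the 15, 5 kept their call in each of the 14 fits that left out a sample, and 1, on chromosome 19, kept it in the 23 other settings run without a minimum difference. Of the run windows, only the chromosome 17 window at 24059001 to 24060000 was called with a minimum difference of 5 points. With one of 10 points none was. The counts over all 135802 windows were 730 and 633 at these limits. Run windows average under 10% by the rule, which limits differences of this size.

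Among windows higher in HCR, the largest difference was at 59427001 to 59428000 on chromosome 8, the last of 3. HCR samples ranged from 5.00% to 9.94% (median 6.05%) and LCR samples from 1.01% to 2.91% (median 1.99%), without overlap, which on the log2 logit scale is a change of 1.33 (SE 0.19; limma, adjusted p = 0.0032, and 0.00194 to 0.0707 over the alternatives). Both other windows of this run stood at about 1% in each line. The next, at 151085001 to 151086000 on chromosome 4, the last of 4, had 6.42% to 8.98% in HCR (median 7.91%) and 1.93% to 4.94% in LCR (median 3.81%), again without overlap (limma adjusted p = 0.026). That call was lost without HCR replicates 2, 4, 5 or 6 or LCR replicates 4 or 8 (limma adjusted p = 0.0583, 0.0588, 0.0654, 0.0599, 0.0512 and 0.0531).

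The other 3 of the 5 largest were close to the threshold. They lay at 10491001 to 10492000 on chromosome 6 (5.28% ± 1.46 for HCR against 2.63% ± 0.339 for LCR, limma adjusted p = 0.0499), and on chromosome 1 at 203134001 to 203135000 (3.30% ± 0.850 and 0.827% ± 0.826, limma adjusted p = 0.0352) and at 181633001 to 181634000 (5.59% ± 0.833 and 3.15% ± 0.523, limma adjusted p = 0.047). In this order they lost the call in 13, 10 and 13 of the 14 fits that left out a sample. The lines did not overlap in either chromosome 1 window. Each of these windows belongs to a run whose other windows were not called.

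Of the 3 windows lower in HCR, the one at 24059001 to 24060000 on chromosome 17, in a run of 4, was listed at 0 in 5 HCR samples and at 4.63% in HCR replicate 6. LCR samples ranged there from 3.82% to 11.7% (median 6.40%), which on the log2 logit scale is a change of -2.52 (SE 0.38; limma, adjusted p = 0.00543, and 4.36e-05 to 0.142 over the alternatives). At 23491001 to 23492000 on chromosome 19, the first of 6, HCR samples ranged from 0.306% to 1.34% (median 0.848%) and LCR samples from 2.08% to 5.17% (median 4.02%), without overlap (limma adjusted p = 0.00264, and 0.000686 to 0.0395 over the alternatives). At 40528001 to 40529000 on chromosome 12 the levels were 1.83% ± 0.627 (SD, n = 6) and 3.87% ± 0.783 (SD, n = 8; limma adjusted p = 0.0404), and this call was lost in 12 of the 14 fits that left out a sample. All 15 runs with a called window held 1 each, and 3 of them were listed by the largest difference of the run mean. Apart from the chromosome 8 and 181633001 windows above, this list held the run at 84966001 to 84969000 on chromosome 13, with 7.16% ± 1.48 (SD) for HCR against 4.92% ± 1.38 for LCR. Its middle window was the called one (limma adjusted p = 0.0436, lost in 13 of the 14 fits that left out a sample).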

How the data were processed

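RRBS libraries were made from 100 ng of DNA with a Diagenode kit, per the labels' protocols. The submitters' processing notes name FastQC, Trim Galore 0.6.10, Bismark, Bowtie2 and the build rn7. The authors deposited percent methylation per library and window of 1000 bp, without counts. Their coverage minimum and handling of duplicates are not given in the sources at hand, so depth is unknown and errors are spreads between samples.

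Columns were matched to samples by library name, and 0 sample columns were left unused. The windows, runs and comparisons were chosen with earlier results of these data known. Named regions are the 5 longest runs, the 3 runs most higher and 3 most lower in HCR, the 3 with most called windows (ties by the larger difference of the run mean), and the called windows with the largest differences, up to 5 each way. Level classes, the ratio scale, runs within 10 kb and the fit of samples 1 to 6 without a block were chosen after seeing the data.

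Levels as log2((level + 0.01)/(1 - level + 0.01)) were compared with limma 3.58.1 in R 4.3.3 (line as factor, variance trend, Benjamini-Hochberg over 135802 windows). The procedure was tested on simulated data. Sample values were compared by exact permutation of the line labels (3003 arrangements, two-sided), in Python 3.11.15 (scipy 1.17.1, pandas 2.3.3, numpy 2.4.6). The planned exact p-values of means over run windows, and of inner against edge windows, are not quoted, since the runs were chosen with results known. The quoted p-values of run minus isolated windows and of the level classes also use the chosen runs. So do those of the relations across samples. Those of the windows directly beside a run depend on where the chosen runs end. All of these p-values carry the same limit. The lines share replicate numbers 1 to 6, without any label that links equal numbers.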

Additional observations from a re-analysis of the deposited data

Results flagged for a closer look

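Each line was searched for a sample standing far from the rest of its line (a gap to the next sample that is a large part of the line's range) in 78 sets of values, where chance gives about 1 in 20; 6 such samples were found. In the run at 100416001 to 100426000 on chromosome 8, LCR replicate 7 stood at 4.47% and the next LCR sample at 3.49%. In the run at 59425001 to 59428000 on chromosome 8, HCR replicate 4 stood at 4.14% and the next HCR sample at 2.94%. In its last window, at 59427001 to 59428000, HCR replicate 4 stood at 9.94% and the next HCR sample at 6.56%. On chromosome 2, the window at 112276001 to 112277000 was called higher in HCR. There HCR replicate 4 stood at 1.75% and the next HCR sample at 1.34%, and LCR replicate 4 at 0.0266% and the next LCR sample at 0.424%. At 24059001 to 24060000 on chromosome 17, a single HCR sample, replicate 6, had 4.63% and the remaining ones were listed at 0. HCR replicate 4 was the outlying sample in 3 of these cases, of which 2 are the same run and its window.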

How the results depend on the processing

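The difference of 0.308 points over run windows kept its direction in all 29 alternatives. It was 0.216 points with a threshold of 5%, 0.222 with the highest sample under 10%, 0.227 with only the HCR mean under 10% and 0.184 as a median over windows; as a percentage of the overall mean it was 0.638. Leaving out a sample gave 0.285 to 0.331 points. The threshold of 15% gave 0.377 and the LCR mean under 10% gave 0.372. The number of runs was 1493 and 2438 with thresholds of 5% and 15%. The flanking windows gave 1.11 to 1.71 points when a sample was left out, run minus isolated windows -0.336 to -0.137, and inner minus edge windows -0.205 to -0.179. The count of 15 called run windows was 29 on untransformed levels, 7 after centring or quantile normalization, 8 in a fit of all 194367 windows, 1 with a minimum difference of 5 points, 0 with one of 10 points and 6 to 20 when a sample was left out. The 0 is a count of run windows by limma at a size limit of 10 points, where 633 of all windows were called. At the limit of 5 points 730 of all windows were called. Without a size limit 15 run windows were called at a limma adjusted p under 0.05. At an unadjusted limma p under 0.05 there were 654 run windows (9.36%, where the share over all windows was 10.9%). For the run at 19566001 to 19576000 on chromosome 8 the difference ranged from -0.0947 without HCR replicate 4 to 0.497 without HCR replicate 2. The cause of these changes was not tested.

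The deviations of same-numbered samples of the lines had r from -0.0480 to 0.0568 over run windows (6 pairs). Samples of different number were not compared in this way, so these values cannot show whether equal numbers pair samples. With the replicate block, samples 1 to 6 of each line gave a run difference of 0.295 points and a flanking difference of 0.888 points (exact test, p = 0.281). The run minus isolated difference was -0.141 points. With the block 1 run window was called, against 6 in the same samples without it. Over all windows 71 were called with the block and 444 without it. The windows at 59427001 on chromosome 8 and 24059001 on chromosome 17 were not called with the block (limma adjusted p = 0.0707 and 0.142). Depth limits these results, since it is unknown and a level of 1% rests on few methylated reads unless coverage is high.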

Other observations

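Groups of runs at most 10 kb apart were counted, a distance chosen after seeing the data. There were 90 such groups with 194 runs, 13 of them with 3 or more runs and 1 with 4. The group of 4 lay at 116750001 to 116786000 on chromosome 7, spanned 36.0 kb and held 16 run windows. Its level averaged 3.56% in HCR and 2.36% in LCR, a difference of 1.20 points, given without a test. The next by number of run windows, at 77133001 to 77151000 on chromosome 16, held 14 windows in 3 runs, with 3.95% in HCR and 3.45% in LCR. On chromosome 20 at 2558001 to 2585000, 3 runs with 13 windows had 2.94% and 2.33%.

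Neighbouring run windows varied weakly together. Over 4926 adjacent pairs of run windows the deviations of the 14 samples from their line means had a median correlation of 0.06, and 57.0% of pairs were positive, against 0.08 and 58.3% over 14103 adjacent pairs at 10% or more. The windows of a pair share their libraries, so these values are a description.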
